A study of Mus musculus with 4 samples.

Results

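The genes described here are 10 members of the insulin-like growth factor (IGF) system of the mouse liver: the ligand gene Igf1, the receptor gene Igf1r, Igfals, and the binding protein genes Igfbp1 to Igfbp7. They are 10 of the 55488 genes in the features tables, matched by symbol, and all 10 were found. The members were chosen by their measured levels and differences in these same libraries, so the levels and ratios below are a description of those values and support nothing further.

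IGF-I is a circulating growth factor made largely in the liver under the control of growth hormone, and it acts through the receptor tyrosine kinase encoded by Igf1r. In blood most of it travels bound, to one of a family of IGF-binding proteins and, for the long-lived pool, to a ternary complex of IGF, a binding protein such as IGFBP-3 or IGFBP-5 and the acid-labile subunit encoded by Igfals. Binding proteins set how much IGF is free, IGFBP-1 follows fasting and insulin within hours, and IGFBP-7 binds IGFs weakly and is known as a matrix and vessel wall protein.

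The study removed the Hippo pathway effectors YAP (gene Yap1) and TAZ (gene Wwtr1) from liver epithelium and sequenced single cells of the liver. The 4 single-cell libraries are wild type (WT), YAPKO (Alb-Cre with Yap fl/fl), TAZKO (Alb-Cre with Taz fl/fl) and DKO (Alb-Cre with both floxed genes), 1 library and 1 mouse each, with no replicate. The albumin promoter drives Cre in hepatocytes (HCs) and biliary epithelial cells (BECs), so endothelial cells (ECs), hepatic stellate cells (HSCs), Kupffer cells (KCs) and other cells keep intact alleles. HCs and non-parenchymal cells were isolated separately after perfusion and mixed before loading, and the age of these mice is not clearly given in the sources used here.

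The deposited matrices held 66259687 UMIs in 13657 barcodes for WT, 85989454 in 7711 for YAPKO, 49022089 in 14418 for TAZKO and 77411746 in 9188 for DKO, where a UMI marks 1 captured RNA molecule. Barcodes with 500 to 6000 genes and at most 10% mitochondrial UMIs were kept, which left 7155, 6275, 8638 and 8294 cells in that order of libraries. Median depth of kept cells was 4618, 7337, 3555.5 and 5952.5 UMIs. In all, 94 barcodes occurred in more than 1 library among kept cells and 212 among all barcodes. Values below are given in the order WT, YAPKO, TAZKO, DKO unless named, as UMIs per 1000000 UMIs of the same cells (CPM), and each interval is a 95% interval for counting error only. The libraries differ in genotype, mouse and preparation at once, so these cannot be told apart, and no comparison here was checked against replicates.

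Cell types were set from marker genes in clusters made without the 10 members: 9523 HCs, 6999 ECs, 2738 KCs, 2572 T cells, 1817 B cells, 1574 monocytes and macrophages (MACs), 1155 neutrophils, 988 plasmacytoid and 665 conventional dendritic cells (pDCs, cDCs), 608 HSCs, 602 NK cells, 124 BECs and 42 fibroblasts or mesothelial cells. Clusters that no marker list named, 1 of dividing cells and 1 with both erythroid and KC markers, held 3.09%, 3.63%, 3.11% and 2.86% of kept cells and are left out. The HCs formed a cluster 1, led by Apob, Cps1 and Cyp2f2, and a shallower cluster 4, led by Gstm3, Gsta2 and Krt18. Cluster 1 held 22.9%, 46.8%, 57.5% and 31.2% of the HCs, and its median depth was 23496, 25525, 2600 and 21354 UMIs against 1954, 3545, 1270 and 4573 in cluster 4, so the mix of HCs differed between libraries and HC values are also given by cluster where they part.

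The labels were checked in HCs first. Yap1 stood at 21.4, 4.79, 47.1 and 4.52 CPM in HCs and Wwtr1 at 5.27, 13.4, 3.28 and 2.37 CPM. Yap1 was thus lowest in YAPKO and DKO, and Wwtr1 in TAZKO and DKO; the remaining UMIs may come from transcripts whose 3′ tag lies outside the deleted part, since the exons removed are not given in the sources used here. In ECs, which keep both genes, Yap1 was 39.8, 40.3, 60.6 and 40 CPM and Wwtr1 154, 163, 155 and 169.9 CPM, with no library low for either. In BECs, where Cre also acts, Yap1 was 39.3, 13.4, 56.7 and 15.5 CPM and Wwtr1 68.7, 57.9, 63.4 and 15.5 CPM, so Wwtr1 was not low in TAZKO BECs (interval 38.2 to 99.0).

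The scale of HC values differed between libraries. The 22 major urinary protein genes held 11.3% of HC UMIs in WT against 5.67%, 2.68% and 4.80% in YAPKO, TAZKO and DKO, and the median log2 ratio to WT over all genes tested was 0.44, 0.63 and 0.48. HC ratios of Igf1, Igfals, Igfbp1, Igfbp2 and Igfbp4 are therefore also given on a second scale, and those of Igf1r, Igfbp3 and the list genes are not. On that scale the median ratio of genes with at least 100 UMIs in the pair, not the total of UMIs, sets 0. That median is over fewer genes and differs a little from the one above. In ECs the median was 0.04, 0.18 and 0.06, in HSCs 0.03, 0.18 and 0.06, in KCs -0.06, 0.24 and 0.03, in MACs 0.01, 0.26 and 0.13, and in neutrophils 0.35, 0.25 and 0.39.

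**Figure D1:**
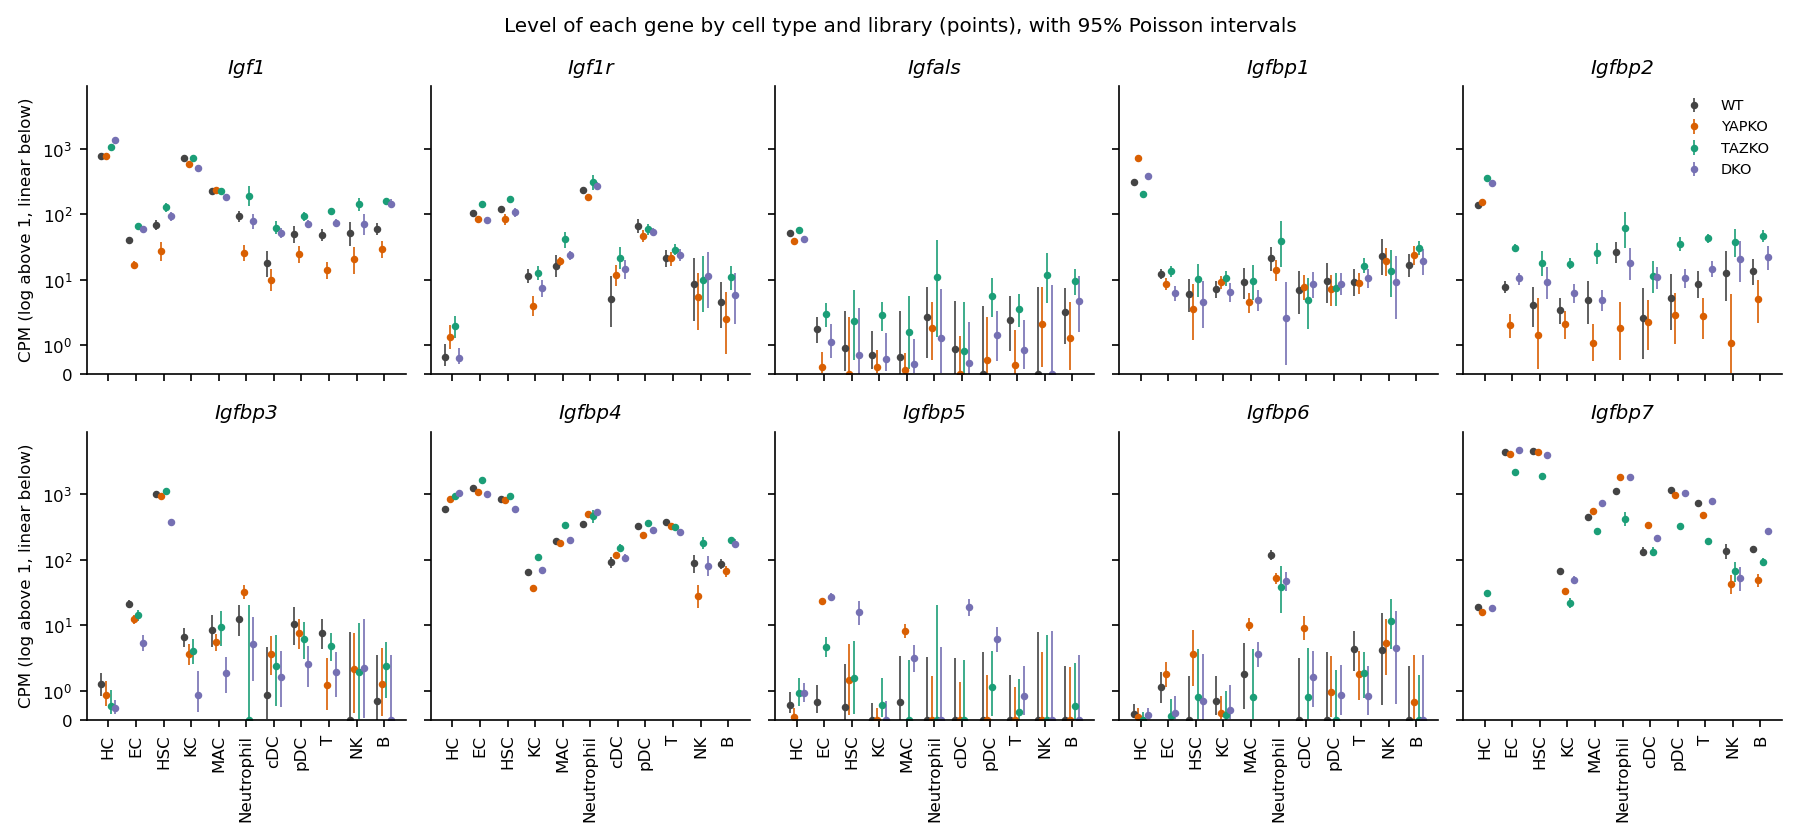
Level of each of the 10 genes (CPM, log scale above 1 and linear below) in 11 cell types, with 1 point per library and its 95% Poisson interval. Igf1 was highest in HCs (772 to 1327 CPM) and KCs (499 to 715), Igfbp3 in HSCs (383 to 1138) and Igfbp7 in ECs (2152 to 4691) and HSCs (1909 to 4533), which overlapped.

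Igf1 (ENSMUSG00000020053, chr10:87858265-87937042, plus strand, GRCm38) encodes the ligand. HCs held 781 CPM of it in WT, 772 in YAPKO, 1070.4 in TAZKO and 1327 in DKO. DKO was highest and YAPKO level with WT. The log2 ratios to WT were -0.02, 0.45 and 0.76, none past 2-fold, and on the median scale they were -0.44, -0.14 and 0.30, so the TAZKO ratio turned sign with the scale. With the cell limits read as UMIs, and as mean over cells, DKO passed 2-fold above WT. The order of libraries was close in both HC clusters, at 827, 771, 1089 and 1371 CPM in cluster 1 and 655, 773, 974 and 1252 CPM in cluster 4, except that YAPKO was above WT in cluster 4.

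KCs were the other cells rich in Igf1, with 715, 575, 715 and 499 CPM. DKO was the lowest library, at a log2 ratio of -0.52 (interval -0.59 to -0.45), YAPKO stood at -0.31, and neither passed 2-fold. Among KCs with the fewer EC-marker UMIs Igf1 was 703, 538, 705 and 496 CPM, and among those with more it was 728, 609.6, 726 and 502 CPM. MACs carried 225, 229, 226 and 183 CPM, a narrow range over libraries. Among the types with at least 20 cells in each library, HCs, KCs and MACs stood apart in that order of mean level. MACs also stood apart from B cells. BECs (85.0, 181, 217 and 433 CPM) and fibroblast or mesothelial cells (109.6, 348, 233 and 298 CPM) are outside this order and overlapped MACs. The next types in order (B cells, neutrophils, HSCs, NK cells, T cells, pDCs, ECs and cDCs) overlapped their neighbours over the libraries.

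HC RNA was counted in these lower types as well. The 9 HC markers, with Alb as the most abundant and none at 0, summed to 9819, 4641, 12519.6 and 11174 CPM in B cells and to 6217, 2045, 6039.5 and 4355 CPM in ECs. Relative to HCs, the Igf1 count per HC-marker count was 0.966, 0.865, 1.31 and 0.932 in B cells and 1.03, 1.14, 1.14 and 0.970 in ECs. It was 2.13, 1.99, 1.34 and 1.08 in pDCs and 0.545, 1.31, 1.26 and 0.810 in NK cells. The fall of Igf1 in YAPKO ECs (log2 ratio -1.24, 40.2 to 17 CPM) and YAPKO neutrophils (-1.84, 92.2 to 25.8 CPM) stood beside less HC-marker RNA in those cells, and its part was not tested. In neutrophils the markers summed to 11525, 3308, 12014 and 5224 CPM.

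KCs stood far above that ratio, at 35.8, 54.6, 15.6 and 12.6 times the HC value, and MACs at 9.43, 33.7, 5.06 and 7.15 times. HSCs were between, at 2.87, 5.17, 2.77 and 2.58 times, with 68.1, 27.5, 127 and 92.0 CPM. The KC markers (7 of 7 found, Cd5l most abundant) summed to 1515, 260.3, 2221 and 1573 CPM in HSCs and were also lowest in YAPKO, where Igf1 in HSCs fell past 2-fold (log2 ratio -1.31, interval -1.86 to -0.78). The part of that RNA in the HSC level was not tested.

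After each cell was thinned to 1000 UMIs, Igf1 was found in 45.1%, 50.2%, 62.4% and 71.1% of HCs and in 54.3%, 39.1%, 48.6% and 38.5% of KCs, against 4.36%, 2.97%, 13.8% and 7.33% of B cells, which should lack it. Unthinned, the shares were 72.8%, 90.7%, 82.7% and 95.9% in HCs and 16.1%, 5.95%, 35.2% and 12.6% in B cells, at median depths of 2143, 5911.5, 1825 and 6135 UMIs against 2945.5, 2877, 2877.5 and 2193. Cells under 1000 UMIs, 0, 6, 77 and 35 of the HCs, were left out of the thinned shares. HCs and KCs together held most Igf1 UMIs of named cells: HCs 71.7%, 64.5%, 70.8% and 88.2%, and KCs 21.4%, 24.1%, 19.0% and 6.08%. Such shares, here and for the other members, also follow the number and depth of cells kept of each type after mixing.

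**Figure D2:**
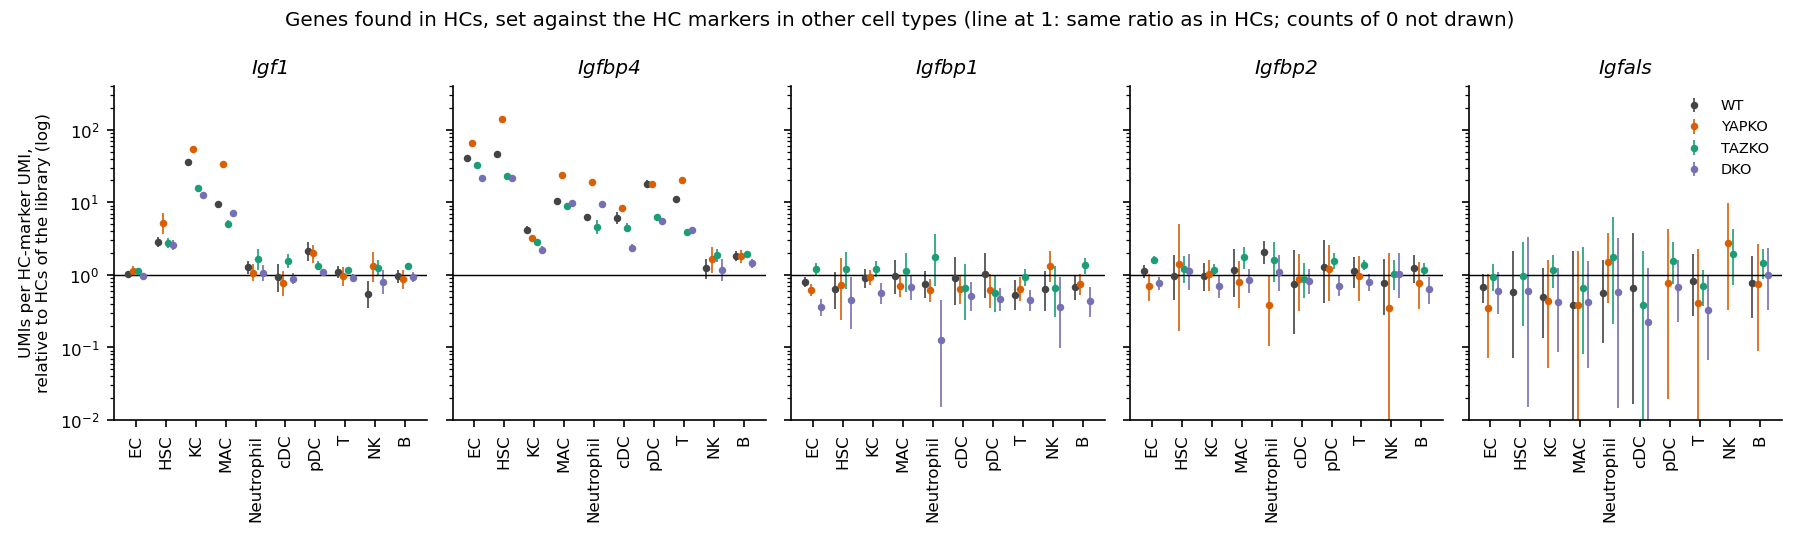
UMIs of 5 genes per UMI of the HC markers in each other cell type, divided by the same ratio in HCs of that library (log axis, 1 point per library with 95% intervals, line at 1). Igf1 lay far above 1 in KCs (12.6 to 54.6) and stayed near 1 in ECs (0.970 to 1.14), while Igfbp1 lay between 0.125 and 1.75, both in neutrophils.

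Igf1r (ENSMUSG00000005533, chr7:67952827-68233668, plus strand) encodes the IGF-I receptor. Neutrophils had the highest level, 230.4, 179.8, 307 and 267 CPM. HSCs followed with 118, 83.4, 167 and 107 CPM and ECs with 105, 83.7, 144 and 81.1 CPM. HSC barcodes also carried EC RNA, given below with Igfbp3, and its part in HSC Igf1r was not tested. Among the types with at least 20 cells in each library, neutrophils stood apart from HSCs, and HSCs and ECs overlapped. ECs stood apart from pDCs at 66.5, 46.4, 59.1 and 52.8 CPM. Outside this order, BECs held 116, 80.2, 160.1 and 54.1 CPM and fibroblast or mesothelial cells 118, 58.0, 93.4 and 172 CPM. TAZKO was the highest library in neutrophils, HSCs and ECs, and YAPKO the lowest in neutrophils and HSCs, yet no Igf1r ratio in these 3 types passed 2-fold (-0.51 to 0.50).

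Below pDCs, MACs, T cells, cDCs, KCs, NK cells and B cells followed with overlaps, and HCs stood last. HCs held 0.580, 1.34, 1.93 and 0.569 CPM, from 11, 23, 27 and 18 UMIs. The ratios past 2-fold in YAPKO HCs (1.21) and TAZKO HCs (1.73) rest on those few UMIs, and both calls were lost with mitochondrial UMIs up to 20% and at resolution 0.8. The YAPKO call was also lost on the median scale, with members and lists allowed in clustering, with types from markers alone and in HC cluster 1 alone. The TAZKO call was also lost without library correction. Over the settings the ratio ranged from 0.72 to 1.79 in YAPKO, and it was 1.11 or more in TAZKO, where the interval and not the fold ended the call. EC-marker RNA in HCs (9 of 9 markers) summed to 70.1, 78.0, 238 and 67.7 CPM, highest in TAZKO too, and at the EC ratio it would give 0.443, 0.410, 2.24 and 0.367 CPM of Igf1r. HC Igf1r was within counting error of that in WT, TAZKO and DKO and 3.28 times it in YAPKO.

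EC markers in neutrophils summed to 4277, 7256, 3305 and 7031 CPM, and Igf1r was 8.52, 4.72, 9.87 and 7 times the level at the EC ratio. In neutrophils with no EC-marker UMI it was 252, 255, 387 and 382 CPM, and in the rest 204, 126, 233 and 175 CPM. The neutrophils of TAZKO are 61 cells in which the 7 neutrophil markers summed to 29848 CPM, against 112141, 85766 and 56647 in the other libraries, and KC markers to 1614 CPM against 147 in WT. Thinned shares with Igf1r were 19.2%, 19.7%, 29.5% and 29.0% of neutrophils and 0.229%, 0.229%, 0.833% and 0.880% of B cells, and unthinned 44.7%, 48.9%, 60.7% and 54.4% against 1.61%, 0.915%, 2.66% and 1.75%, at neutrophil median depths of 2360, 2418, 2157 and 1954.5 UMIs.

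By number of molecules ECs held the largest part of Igf1r among named cells, 59.1%, 49.8%, 60.2% and 43.8%, since ECs were many. Within ECs it was higher toward the portal side. ECs of each library were ordered by a score from landmark genes and split into 3 equal groups, and the log2 ratio of the pericentral to the periportal group was -0.56, -0.59, -0.34 and -0.49. All 4 libraries shared that direction. Each type's 3 groups are ranges of a score, not cell types, and are not compared between libraries.

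Igfals (ENSMUSG00000046070, chr17:24865997-24882010, plus strand) encodes the acid-labile subunit of the ternary complex. HCs held 51.7, 39.0, 57.3 and 41.3 CPM. YAPKO and DKO were the low libraries, with log2 ratios of -0.41, 0.15 and -0.32, none past 2-fold, and -0.83, -0.44 and -0.79 on the median scale, so TAZKO was above WT by one scale and below it by the other. With the cell limits read as UMIs, YAPKO passed 2-fold below WT. In HC cluster 1 the level was 60.4, 45.6, 61.4 and 56.9 CPM and in cluster 4 it was 28.2, 6.26, 36.8 and 14.9 CPM. The YAPKO and DKO levels were thus lower in cluster 4 by a wider margin, and the YAPKO ratio passed 2-fold there, a split chosen after the values were seen.

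HCs held 95.9%, 97.1%, 89.0% and 97.5% of Igfals UMIs of named cells. BECs held 1.64, 8.92, 10.0 and 15.5 CPM, from 1, 4, 3 and 2 UMIs. B cells were next in order among the types with at least 20 cells in each library. In B cells Igfals stood at 3.2, 1.27, 9.46 and 4.79 CPM, 0.784, 0.744, 1.45 and 0.998 times its ratio to HC markers in HCs. The other types with more than 10 cells per library held 0 to 11.8 CPM, and the falls and rises past 2-fold (YAPKO ECs -2.73 from 3 against 20 UMIs, TAZKO KCs 2.13 from 16 against 4) stood beside HC-marker sums of 2045 against 6217 CPM in ECs and 4715 against 3188 CPM in KCs. Along the lobule Igfals was higher in periportal HCs in each library, with log2 ratios of pericentral to periportal of -0.81, -0.96, -0.73 and -0.83. Periportal HC groups were also deeper, with median UMIs of 6656, 25268, 2629.5 and 11726 against 1850, 3091, 1474.5 and 4121 in the pericentral groups, and the part of depth in this was not tested.

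**Figure D3:**
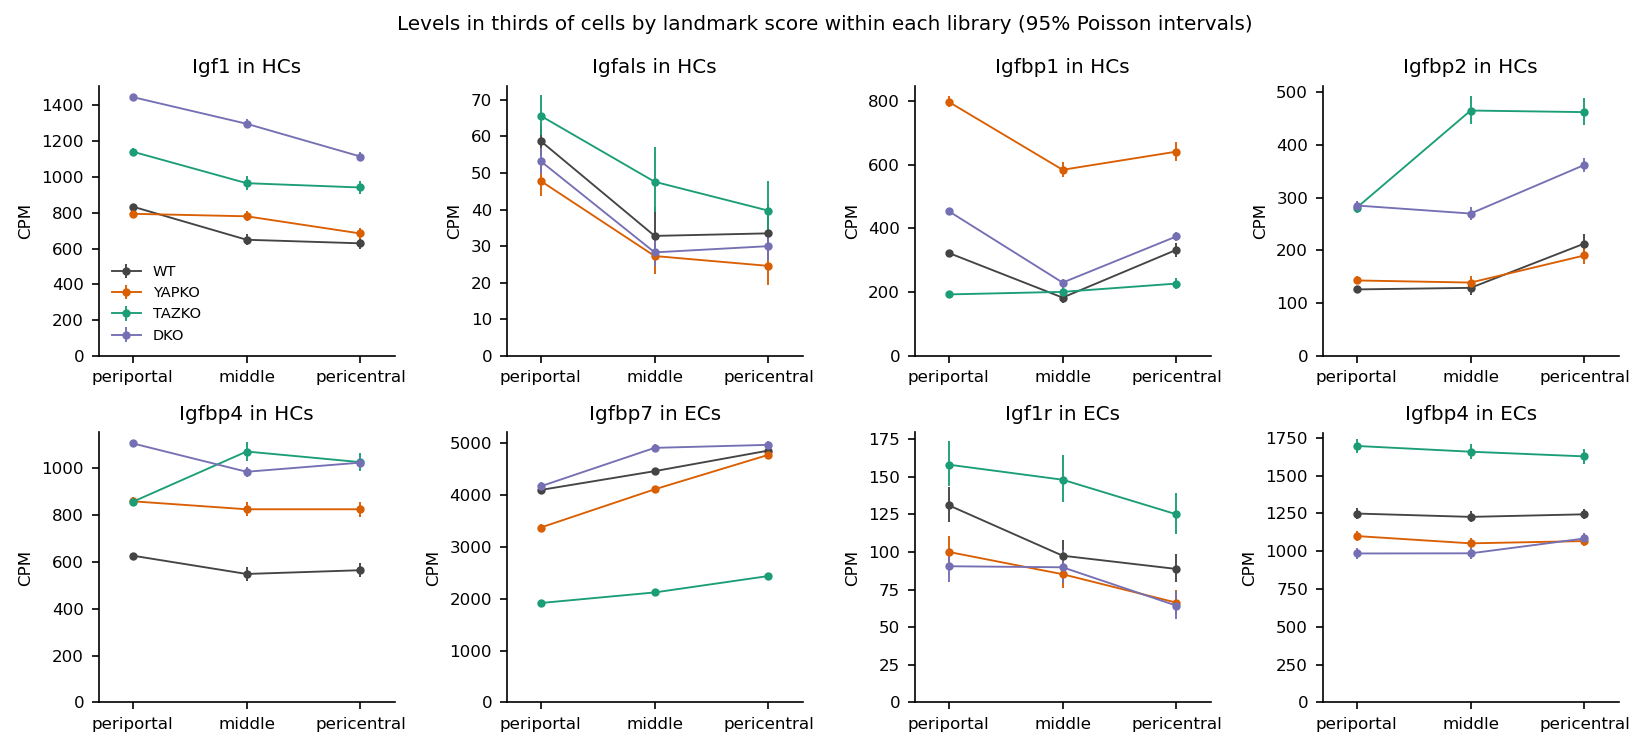
Level (CPM, linear axis from 0) of 5 genes in HCs and 3 in ECs, in 3 equal groups of cells ordered by landmark genes from periportal to pericentral, 1 line per library with 95% Poisson intervals. In HCs of each library Igfals was lower in the pericentral than the periportal group (WT 33.5 against 58.7 CPM) and Igfbp2 higher (213 against 126), and in ECs Igfbp7 was higher (4854 against 4095) and Igf1r lower (88.7 against 131).

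Igfbp1 (ENSMUSG00000020429, chr11:7197782-7202546, plus strand) encodes the binding protein that rises with fasting and falls with insulin. It lies beside Igfbp3 (ENSMUSG00000020427, chr11:7206086-7213923, minus strand), tail to tail, with 3539 bases and 0 coding genes between them, although HCs held most Igfbp1 and HSCs most Igfbp3. The promoters of both neighbours are shown because the pair is so close in the genome and so unlike in cell type; they come from the RefSeq promoter table on build GRCm38.p6 (250 bases before to 50 after each start), in which all 10 members were matched. Igfbp1 is chr11:7197537-7197836 on the plus strand and Igfbp3 is chr11:7213874-7214173 on the minus strand. Capitals mark matches to any of 5 motifs searched on both strands, with no overlaps among the matches printed: the TATA box TATAAA (in 13.6% of all 32544 promoters), the FOXO site TGTTTAC (3.66%), the insulin response element CAAAACA (6.32%), the TEAD site GGAATG (14.6%) and the E box CACGTG (7.17%).
Igfbp1: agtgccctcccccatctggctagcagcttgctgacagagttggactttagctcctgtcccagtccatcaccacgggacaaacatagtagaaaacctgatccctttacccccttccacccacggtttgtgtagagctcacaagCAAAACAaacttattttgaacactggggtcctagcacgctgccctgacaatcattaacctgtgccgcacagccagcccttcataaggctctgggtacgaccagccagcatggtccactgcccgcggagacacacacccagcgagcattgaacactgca
Igfbp3: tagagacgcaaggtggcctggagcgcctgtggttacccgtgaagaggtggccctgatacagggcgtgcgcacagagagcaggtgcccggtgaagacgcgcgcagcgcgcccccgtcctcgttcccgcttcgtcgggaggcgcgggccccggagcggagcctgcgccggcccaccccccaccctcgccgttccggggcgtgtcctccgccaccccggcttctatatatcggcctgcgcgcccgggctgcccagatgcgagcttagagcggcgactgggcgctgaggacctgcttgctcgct
Igfbp1 held 1 match, CAAAACA at -108 from the start, and Igfbp3 none. The Igfbp3 window had 37 CG pairs and 71.7% G and C, and that of Igfbp1 had 8 and 54.3%, against medians of 7 and 53.0% over all promoters.

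Igfbp1 in HCs stood at 306, 721, 201 and 379 CPM. YAPKO was the high library and TAZKO the low one. The log2 ratios to WT were 1.24 (interval 1.19 to 1.28), -0.61 and 0.31, and on the median scale 0.81, -1.20 and -0.16, so YAPKO passed 2-fold on the first scale and TAZKO on the second, and DKO turned sign. The YAPKO level lay in the deep cells: cluster 1 held 358, 839.7, 211 and 553 CPM and cluster 4 held 164, 132, 152 and 86.0 CPM, where YAPKO was below WT. Markers of neutrophils were also more abundant in YAPKO HCs, at 26.2, 531, 5.78 and 14.8 CPM (S100a9 most abundant), and their part in the result was not tested.

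After thinning, 20.3%, 31.4%, 17.8% and 18.3% of HCs had an Igfbp1 UMI against 2.06%, 2.52%, 2.33% and 0.587% of B cells. Outside HCs, levels were 2.58 to 38.4 CPM in the types with more than 10 cells in each library and outside fibroblasts, near or under the ratio to HC markers in HCs, for example 0.802, 0.624, 1.21 and 0.362 times in ECs. The 10 BECs of DKO held 278 CPM beside HC markers at 19037 CPM, too few cells to set against the 3.27, 4.46 and 20 CPM of the other libraries. Igfbp1 had no steady direction along the lobule, with pericentral to periportal log2 ratios of 0.05, -0.31, 0.24 and -0.27.

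Igfbp2 (ENSMUSG00000039323, chr1:72824503-72852474, plus strand) encodes a binding protein made by HCs. It too has a close neighbour, Igfbp5 (ENSMUSG00000026185, chr1:72857932-72874884, minus strand), 5457 bases away with 0 coding genes between, and the promoters of this second pair are shown for the same reason, Igfbp2 at chr1:72824230-72824529 on the plus strand (the first of its 2 starts in the table) and Igfbp5 at chr1:72874816-72875115 on the minus strand, both RefSeq, GRCm38.p6, with the same marking.
Igfbp2: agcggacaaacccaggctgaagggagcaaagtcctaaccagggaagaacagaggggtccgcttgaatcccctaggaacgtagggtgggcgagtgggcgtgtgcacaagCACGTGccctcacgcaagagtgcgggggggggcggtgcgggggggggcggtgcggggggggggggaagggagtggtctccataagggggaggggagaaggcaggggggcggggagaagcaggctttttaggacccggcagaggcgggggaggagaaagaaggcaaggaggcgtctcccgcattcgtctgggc
Igfbp5: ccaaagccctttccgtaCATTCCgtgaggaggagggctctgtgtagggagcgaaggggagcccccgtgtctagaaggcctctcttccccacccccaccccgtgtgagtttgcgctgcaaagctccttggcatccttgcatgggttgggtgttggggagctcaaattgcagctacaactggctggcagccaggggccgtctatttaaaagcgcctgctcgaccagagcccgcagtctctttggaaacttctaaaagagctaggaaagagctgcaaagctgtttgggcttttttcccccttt
Igfbp2 held CACGTG at -142 and Igfbp5 held GGAATG, on the other strand, at -233. Of the other members, Igfbp4 held TATAAA at -28, Igfbp6 the same letters on the other strand at -148, Igfals GGAATG on the other strand at -39 of one start and TGTTTAC at -242 of another, and Igf1, Igf1r and Igfbp7 none.

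Igfbp2 in HCs stood at 139, 150.2, 349 and 301 CPM. TAZKO and DKO were the high libraries, at log2 ratios of 1.33 (1.26 to 1.40) and 1.12 (1.05 to 1.18) that both passed 2-fold, with YAPKO at 0.12. On the median scale these were 0.74, 0.65 and -0.31, under 2-fold and with the sign of YAPKO turned. In cluster 1 the level was 141, 167, 344 and 377 CPM and in cluster 4 it was 131, 67.4, 374 and 170.5 CPM, so TAZKO was high in both and DKO passed 2-fold in cluster 1 alone.

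Thinned shares with Igfbp2 were 13.5%, 10.1%, 35.7% and 20.8% of HCs, against 1.61%, 0.229%, 4.17% and 1.76% of B cells. TAZKO was also past 2-fold above WT in ECs (30.3 against 7.74 CPM, log2 ratio 1.97), HSCs (2.14), KCs (2.37), MACs (2.39) and neutrophils (1.18). Per HC-marker UMI, and relative to HCs of TAZKO, Igfbp2 there was 1.58 in ECs, 1.21 in HSCs, 1.18 in KCs, 1.74 in MACs and 1.59 in neutrophils, and the part of HC RNA was not tested. Igfbp2 was higher toward the central vein in HCs of each library, with log2 ratios of 0.76, 0.42, 0.72 and 0.34, opposite to Igfals.

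Igfbp3 encodes the main binding protein of the ternary complex in blood, and here it belonged to HSCs, the vitamin A storing pericytes of the liver. HSCs held 1025, 934, 1138 and 383 CPM from 2241, 1288, 1441 and 582 UMIs. DKO was low and the other 3 libraries were close together. The log2 ratio of DKO to WT was -1.42 (-1.56 to -1.29), past 2-fold, with YAPKO at -0.13 and TAZKO at 0.15. The 9 HSC markers, led by Dcn, summed to 16253, 13168, 16881 and 13696 CPM in these cells, lower in YAPKO and DKO than in WT, and their part was not tested.

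HSC barcodes also carried EC RNA, 10085, 11094, 7427 and 7594 CPM over 9 of 9 EC markers, so HSCs were grouped by that share at limits chosen after the values were seen. Below 3000 CPM of EC markers Igfbp3 was 2465, 1792, 1689 and 370.4 CPM, in 23, 4, 25 and 17 cells. From 3000 to 10000 CPM it was 1216, 1273, 1138 and 433 CPM, and above that 658, 620.0, 817 and 295 CPM. DKO was the lowest in each group. WT, YAPKO and TAZKO levels were lower with each step in EC RNA, while DKO was highest in the middle group.

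The share of thinned HSCs with an Igfbp3 UMI was 51.1%, 46.8%, 58.5% and 25%, against 0%, 0.229%, 0.500% and 0% of B cells, where 0 of 436 and of 341 cells leaves upper bounds of 0.843% and 1.08%. Unthinned shares were 88.0%, 89.9%, 91.3% and 79.3% at median depths of 8053, 11388, 7629.5 and 12729.5 UMIs, so the deepest library, DKO, had the lowest share. HSCs held 85.5%, 79.0%, 88.0% and 84.7% of Igfbp3 UMIs of named cells.

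The few fibroblast or mesothelial cells held 75.9, 33.2, 28.0 and 23.5 CPM of Igfbp3. Among the types with at least 20 cells in each library, ECs followed HSCs at 21.1, 12.4, 14.2 and 5.43 CPM. DKO passed 2-fold below WT in ECs (-1.96), as it did in KCs (-2.94, 5 against 41 UMIs) and MACs (-2.19, 11 against 14). Over all libraries EC Igfbp3 was 1.20 CPM in ECs with no HSC-marker UMI, 4.73 in those with 1 or 2 and 42.6 in those with 3 or more, groups chosen after the values were seen, with median depths of 4636, 5458 and 6490 UMIs. The part of HSC RNA was not tested. In HCs Igfbp3 was 24, 15, 7 and 13 UMIs, with TAZKO (-1.34) and DKO (-1.62) past 2-fold below WT. These rest on few UMIs: the TAZKO call was lost with the limits read as UMIs, with mitochondrial UMIs up to 20% and with types from markers alone (range -2.98 to -0.98), and the DKO call in HC cluster 1 alone (range -4.02 to -0.40). Neutrophils of YAPKO held 32.5 CPM against 12.4 in WT (1.39), beside HSC markers at 377 against 254 CPM.

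**Figure D4:**
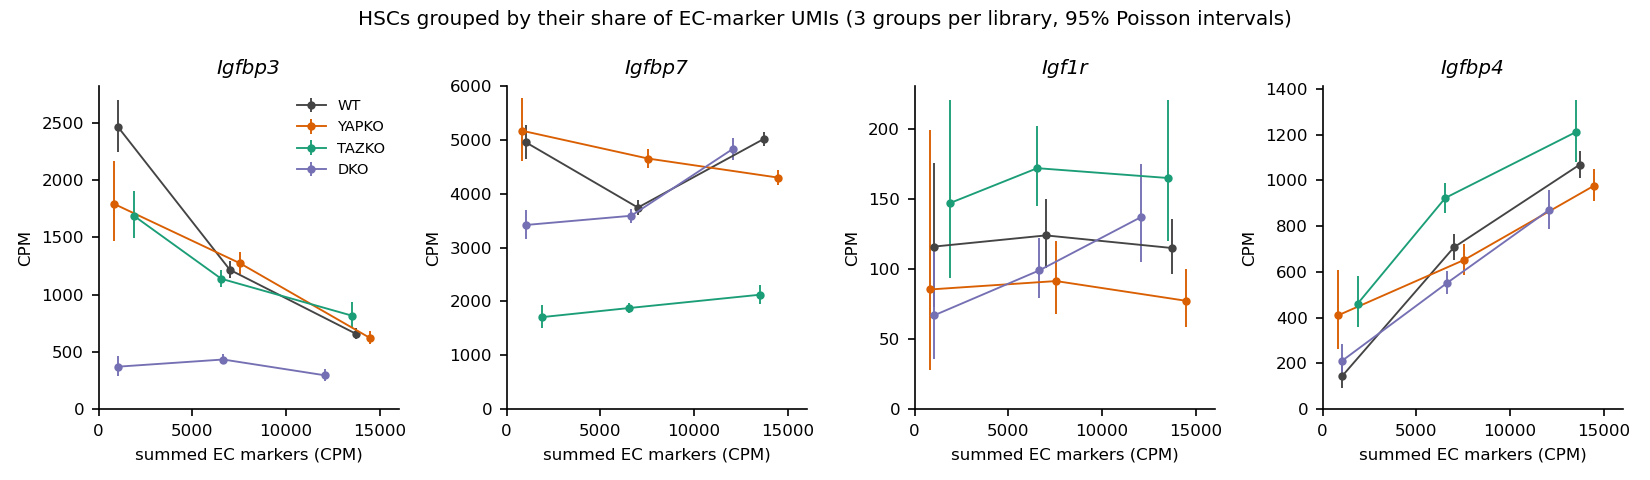
Level (CPM, linear axis from 0) of Igfbp3, Igfbp7, Igf1r and Igfbp4 in HSCs in 3 groups per library by their summed EC markers (CPM, horizontal axis), with 95% Poisson intervals. Igfbp3 was lowest in DKO at each EC share (370.4, 433 and 295 CPM) and Igfbp7 lowest in TAZKO (1708, 1878 and 2124 CPM), while Igfbp4 was higher with more EC markers (274 to 1022 CPM over all libraries).

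Igfbp4 (ENSMUSG00000017493, chr11:99041244-99054392, plus strand) encodes a binding protein that inhibits IGF action until it is cleaved by the protease PAPP-A. ECs and HCs held most of its UMIs in named cells, ECs 46.5%, 37.3%, 41.6% and 18.8% and HCs 37.5%, 43.9%, 41.8% and 69.6%. These shares also follow the cells kept, 2222, 1431, 1943 and 1403 ECs and 2205, 1220, 3060 and 3038 HCs, and are not shares in the liver. In ECs the level was 1240.2, 1073, 1661 and 1020.0 CPM, highest in TAZKO (log2 ratio 0.42) and lowest in DKO (-0.28). In HCs it was 607, 844, 927 and 1055 CPM, lowest in WT. The HC ratios of 0.48, 0.61 and 0.80 were 0.05, 0.02 and 0.33 on the median scale, and none passed 2-fold on either scale. With the cell limits read as UMIs, and as mean over cells, TAZKO passed it.

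HSCs held 852, 821, 927 and 606 CPM of Igfbp4, but 274 CPM where EC markers were under 3000 CPM and 1022 CPM where they were above 10000, over all libraries. At the HC and EC ratios of each library, HSC Igfbp4 was 1.11, 1.09, 1.10 and 1.11 times what those RNAs would give. B cells stood at 0.908, 1.18, 1.15 and 0.929 times and neutrophils at 0.945, 0.964, 1.00 and 0.997 times, so their levels of 87.6, 66.6, 203 and 177 CPM and of 354, 497, 461 and 535 CPM were near what HC and EC RNA in their own ratios would give.

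T cells held 374, 332, 316 and 267 CPM, 1.69, 2.64, 1.31 and 1.10 times the level at the HC and EC ratios. MACs stood at 1.19, 1.17, 1.19 and 1.04 times and cDCs at 1.87, 1.09, 1.10 and 1.20 times. In T cells without an EC-marker UMI the level was 245, 235, 174 and 131 CPM in 225, 411, 547 and 628 cells. WT and YAPKO were high and DKO low there. The smaller T cluster 15, with EC markers at 9168 to 10155 CPM, stood at 752, 741, 904 and 682 CPM against 262, 259, 231 and 127 CPM in cluster 8. The part of other cells' RNA that is left in those values was not tested. Thinned shares were 19.8%, 19.8%, 20.5% and 11.7% of T cells, 69.2%, 63.7%, 80.9% and 61.1% of ECs and 41.4%, 55.0%, 64.0% and 59.8% of HCs, against 6.19%, 4.35%, 15.2% and 7.62% of B cells.

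Igfbp5 encodes a matrix-bound binding protein, and the fibroblast or mesothelial cells had the highest level, 2808, 879, 2679.8 and 3925 CPM in 9, 9, 10 and 14 cells. Those cells are too few for ratios to WT. In ECs it was 0.608, 23.5, 4.75 and 27.4 CPM from 7, 269, 37 and 242 UMIs. YAPKO and DKO were high and WT low, with log2 ratios to WT of 5.27 (4.21 to 6.60), 2.96 (1.78 to 4.37) and 5.49 (4.43 to 6.82), all past 2-fold. Over the settings the ratios ranged from 2.80 to 5.46 in YAPKO, 2.57 to 3.58 in TAZKO and 3.67 to 5.67 in DKO.

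These UMIs sat in few cells. ECs with an Igfbp5 UMI numbered 6, 20, 9 and 22, and the top 2 cells held 42.9%, 50.6%, 43.2% and 55.8% of the UMIs, so UMIs were not independent and the EC intervals are too narrow. ECs with at least 3 UMIs of Vwf, a large-vessel gene, numbered 13, 47, 13 and 22, and in them Igfbp5 was 0, 514, 0 and 909 CPM, where 0 UMIs in WT allows up to 36.4 CPM at the upper bound of its interval. The 40 ECs with 2 or more Igfbp5 UMIs were also higher than other ECs in Atp13a3 (1029 against 27.3 CPM), Fbln2 (282 against 5.97), Vwf (311 against 16.3), the antigen presentation genes Cd74 (759 against 36.4), H2-Aa (386 against 14.5) and H2-Ab1 (344 against 17.9), and the myeloid gene Lyz2 (344 against 18.6), genes named after their values were seen. These 40 cells were pooled over libraries, 1, 16, 8 and 15 of them in turn, so they differ from other ECs in library as well. Along the EC score YAPKO Igfbp5 was 48.3 CPM in the periportal group against 20.9 in the pericentral one, and in DKO 241 of 242 UMIs were periportal.

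Fibroblast markers in ECs summed to 4.35, 13.0, 7.57 and 22.6 CPM, 5, 7, 4 and 4 of the 7 found, with Gpm6a most abundant in WT and TAZKO and Pi16 in YAPKO (9.36 CPM) and DKO (16.2 CPM). They were higher in the same libraries as Igfbp5, and their part was not tested. In MACs of YAPKO Igfbp5 was 8.32 against 0.606 CPM (63 against 1 UMI, log2 ratio 3.78, 1.25 to 9.11), and in HSCs of DKO it was 15.8 against 0.457 CPM (24 against 1 UMI, 5.11, 2.49 to 10.47). The 63 UMIs lay in 3 of 566 MACs and the 24 in 4 of 116 HSCs, and the same holds for those intervals. It was at 0 UMIs in neutrophils and NK cells of all 4 libraries.

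Igfbp6 (ENSMUSG00000023046, chr15:102144362-102149511, plus strand) encodes a binding protein that prefers IGF-II. Fibroblasts or mesothelial cells held 5692, 1708, 3417 and 2992 CPM, and 79.9%, 43.9%, 93.6% and 82.3% of the UMIs of named cells. Among the larger types neutrophils led with 119.6, 52.4, 38.4 and 47.7 CPM from 135, 116, 7 and 37 UMIs. WT was the high library, and YAPKO (-1.19, -1.56 to -0.82), TAZKO (-1.64, -2.98 to -0.56) and DKO (-1.33, -1.89 to -0.79) all fell past 2-fold. The YAPKO call was lost with limits read as UMIs, with doublets left out and as mean over cells (range -1.50 to -0.76). In neutrophils with no EC-marker UMI the level was 161, 74.7, 68.3 and 66.5 CPM.

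The neutrophil UMIs were spread over 78, 68, 6 and 25 cells, at most 7 in any 1 cell. Of the fibroblast markers, 2, 4, 2 and 2 of 7 were found in neutrophils, and their sum of 121, 91.7, 104 and 79.9 CPM was mostly Pi16 (118, 84.5, 87.9 and 72.2 CPM), highest in WT as Igfbp6 was. The neutrophil markers themselves stood at 112141, 85766, 29848 and 56647 CPM, also highest in WT, and the part of either was not tested. In MACs Igfbp6 was 1.82, 10.3, 0.791 and 3.72 CPM, and the YAPKO value (log2 ratio 2.50, 0.90 to 4.81, from 78 against 3 UMIs) stood beside neutrophil markers at 78.7, 1528, 60.1 and 124 CPM in MACs.

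Igfbp7 (ENSMUSG00000036256, chr5:77349240-77408041, minus strand) encodes the vessel wall protein of the family. ECs held 4481, 4089.9, 2152 and 4691 CPM and HSCs 4533, 4481, 1909 and 3952 CPM. TAZKO was low in both types and the other libraries were close together. The log2 ratio of TAZKO to WT was -1.06 (-1.08 to -1.03) in ECs and -1.25 (-1.31 to -1.18) in HSCs, past 2-fold. YAPKO and DKO ratios were -0.13 and 0.07 in ECs and -0.02 and -0.20 in HSCs.

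EC markers in ECs summed to 16630.2, 15922, 15301 and 14962 CPM. HSCs with under 3000 CPM of EC markers, 4 cells of them in YAPKO, held 4956, 5172, 1708 and 3421 CPM of Igfbp7. The part of EC RNA in the HSC level was not tested. ECs in which no Vwf was counted held 4510.5, 4159.5, 2173 and 4788 CPM, and those with 3 or more Vwf UMIs 2811, 2817, 979 and 2149.6 CPM, with TAZKO low in each. BECs, in which Cre acts, held 1927, 1685, 1094 and 765 CPM, the last from 10 cells.

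Thinned shares of ECs with Igfbp7 were 97.3%, 95.9%, 84.8% and 97.4% against 2.98%, 1.37%, 2.50% and 3.52% of B cells, and unthinned 99.4%, 99.6%, 96.8% and 99.6% against 5.96%, 4.35%, 4.49% and 6.43%, at EC median depths of 5259, 7615, 3865 and 5725 UMIs. Most other types held Igfbp7 in its EC ratio, such as neutrophils (0.972, 0.974, 0.909 and 0.834 times) and T cells (1.07, 1.17, 0.934 and 0.952 times), and in neutrophils with no EC-marker UMI it was 22.3, 14.1, 0 and 8.67 CPM. The KCs were under that ratio at 0.298, 0.177, 0.134 and 0.220 times. In ECs Igfbp7 was higher toward the central vein in each library, with log2 ratios of 0.25, 0.50, 0.35 and 0.25.

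**Figure D5:**
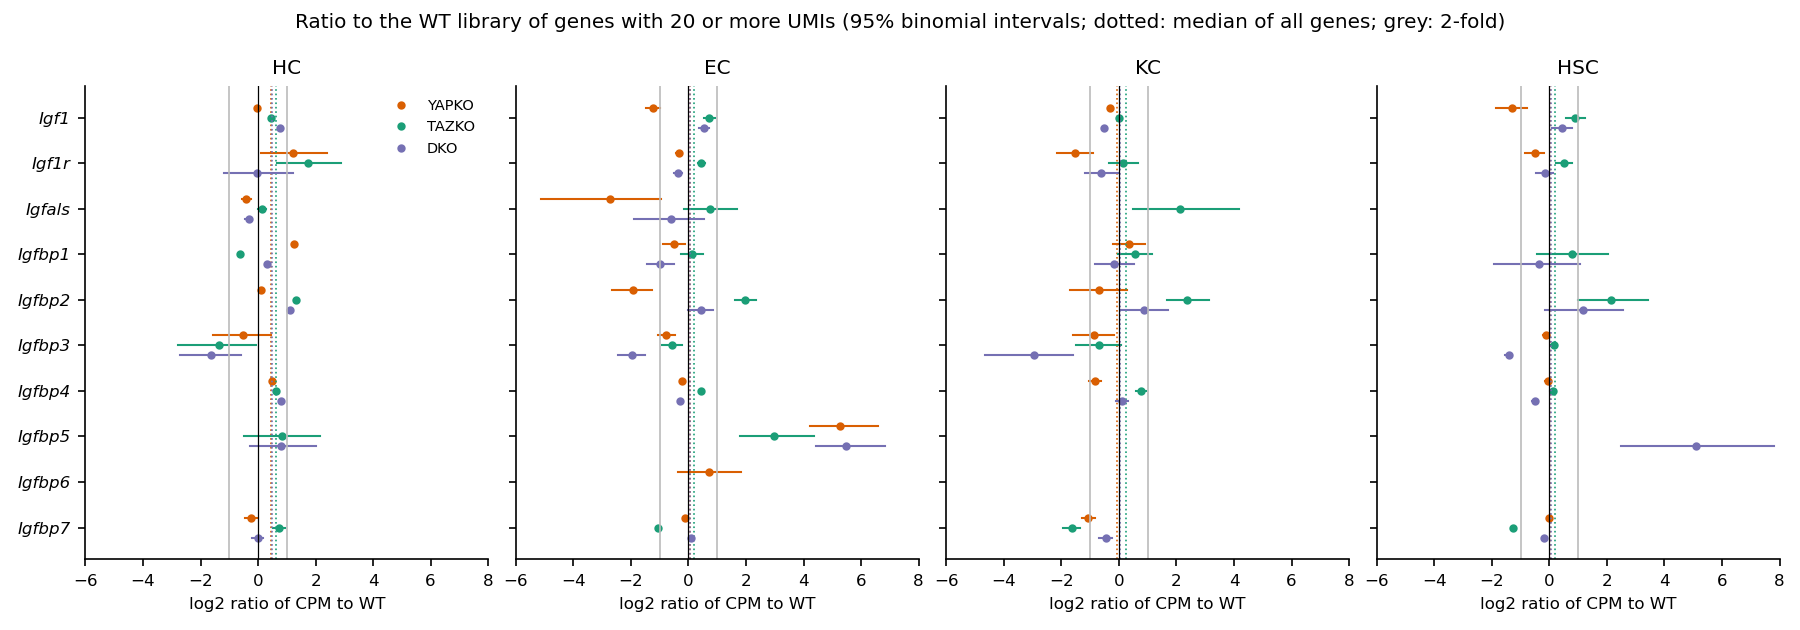
Log2 ratio of CPM to WT for members with 20 or more UMIs over the pair, in HCs, ECs, KCs and HSCs, with 95% binomial intervals, dotted lines at the median of all genes and grey lines at 2-fold. Igfbp5 in ECs lies furthest right (5.27, 2.96 and 5.49), Igfbp7 in TAZKO ECs and HSCs (-1.06, -1.25) and Igfbp3 in DKO HSCs (-1.42) lie left of the 2-fold line.

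Counted by comparison, a gene was called past 2-fold where the size of its log2 ratio was at least 1 and its interval left out 0, among genes with at least 20 UMIs over the pair of libraries. The 3 comparisons of a type share the WT library. In HCs 2 of 8 members tested passed in YAPKO (Igf1r and Igfbp1 up), where 11% of all genes tested did. In TAZKO it was 3 of 9 (Igf1r and Igfbp2 up, Igfbp3 down) against 26.6% of all genes, and in DKO 2 of 9 (Igfbp2 up, Igfbp3 down) against 18.3%. The TAZKO and DKO shares of members were near the background of all genes and are no result about the members. The median member ratio in HCs was 0.05, 0.61 and 0.31 beside medians of all genes of 0.44, 0.63 and 0.48.

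In ECs 4 of 10 members passed in YAPKO (Igfbp5 up, Igf1, Igfals and Igfbp2 down) against 6.19% of all genes. TAZKO ECs had 3 of 9 (Igfbp2 and Igfbp5 up, Igfbp7 down) against 9.12%, and DKO ECs 2 of 9 (Igfbp5 up, Igfbp3 down) against 7.51%. HSCs had 1 of 5 in YAPKO (Igf1 down) against 5.08%, 2 of 7 in TAZKO (Igfbp2 up, Igfbp7 down) against 9.73% and 2 of 8 in DKO (Igfbp5 up, Igfbp3 down) against 6.58%. Igfbp5 UMIs sat in few cells in ECs and in DKO HSCs (24 in 4 of 116), so the intervals behind its calls are too narrow.

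KCs had 2 of 7 in YAPKO (Igf1r at -1.52 and Igfbp7 at -1.06) against 5.27%, 3 of 8 in TAZKO (Igfals and Igfbp2 up, Igfbp7 at -1.64) against 13.4% and 1 of 7 in DKO (Igfbp3 down) against 6.40%. Igfbp7 in KCs ranged over the settings from -1.23 to 1.26 in YAPKO, reaching 2-fold in either direction in 8 of 14. In TAZKO it ranged from -1.97 to -0.37, and its call was lost with limits read as UMIs, without doublets and without library correction. MACs had 3 of 8 in YAPKO (Igfbp5 and Igfbp6 up, Igfbp1 at -1.02) against 5.67%, 2 of 7 in TAZKO (Igf1r at 1.33, Igfbp2 up) against 12.1% and 1 of 9 in DKO (Igfbp3 down) against 7.87%. The Igfbp5 call in YAPKO MACs rests on 63 UMIs in 3 of 566 cells. Igfbp1 there ranged over the settings from -1.48 to -0.01. Its call was lost without library correction, with members and lists allowed in clustering, with types from markers alone and as mean over cells. For neutrophils the counts were 4 of 8 in YAPKO (Igfbp3 up, Igf1, Igfbp2 at -3.88 and Igfbp6 down) against 14.3%, 4 of 7 in TAZKO (Igf1 at 1.06 and Igfbp2 up, Igfbp6 and Igfbp7 at -1.41 down) against 13.7% and 2 of 7 in DKO (Igfbp1 at -3.04, Igfbp6 down) against 16.8%. In TAZKO neutrophils Igf1 ranged from -0.67 to 1.13, at 2-fold in 8 of 14 settings, and Igfbp7 from -1.52 to -0.05. That Igfbp7 call was lost with limits read as UMIs, without doublets, with types from markers alone and in cells with the fewest other markers. Members that other cells make, such as Igfals and Igfbp2 in KCs, are among these calls, and with 5 to 10 members tested a single call moves the share widely.

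The other genes of IGF and insulin signalling (8 genes of ligands, receptors and adaptors) were tested in HCs for 7 of 8. Of all genes tested in HCs, 11%, 26.6% and 18.3% were called in YAPKO, TAZKO and DKO, the background for each list below. None passed 2-fold in YAPKO (median 0.76, all genes 0.44). In TAZKO 3 were higher and 0 lower (median 0.87, all genes 0.63): the insulin receptor Insr went from 42.9 to 91.5 CPM, the adaptor Irs1 from 5.53 to 22.4 and Grb10 from 1.21 to 2.99. In DKO 1 was higher, the adaptor Irs2, from 16.6 to 46.9 CPM (median 0.33, all genes 0.48). In HCs the most abundant of the list was Insr in WT and TAZKO and the adaptor Grb14 in YAPKO and DKO. Insr stood at 42.9, 57.6, 91.5 and 52.9 CPM there and Grb14 at 38.4, 65.6, 54.1 and 62.4 CPM. In ECs Insr was the most abundant (169, 232, 152 and 93.3 CPM). Of the list, 0 of 5, 1 of 6 and 2 of 6 tested passed in ECs, all higher, against 6.19%, 9.12% and 7.51% of all genes.

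The growth hormone receptor pathway, which drives Igf1 and Igfals in HCs, was tested for 8 of 8 genes. In YAPKO HCs 3 were higher (Stat5a, Socs1 and Socs3) and Socs2, a feedback inhibitor that STAT5 induces, went from 26.2 to 10.3 CPM (log2 ratio -1.34), with a median of 0.86 (all genes 0.44, 11% called). In TAZKO the same numbers passed, with Cish, another such inhibitor, from 10.6 to 3.85 CPM (-1.47) and a median of 0.90 (all genes 0.63, 26.6% called). In DKO Socs3 alone passed, from 3.21 to 10.4 CPM, with a median of 0.31 (all genes 0.48, 18.3% called). The receptor Ghr, the most abundant, stood at 273, 304, 384 and 325 CPM and passed in none.

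Insulin and FOXO responsive genes of HCs, the class in which Igfbp1 is usually put, were tested for 9 of 9. In YAPKO and in TAZKO Srebf1 was the 1 gene higher (23.7 to 47.8 and to 75.5 CPM; medians 0.67 and 0.33), and in DKO 3 were higher, Foxo3, Irs2 and Srebf1 (median 0.79), with 0 lower in each, against 11%, 26.6% and 18.3% of all genes called and medians of 0.44, 0.63 and 0.48. Pck1, the most abundant and a fasting gene, was 1692, 2735, 1317 and 2186 CPM, high in YAPKO and low in TAZKO as Igfbp1 was. Of the 8 integrated stress response genes 2 were higher and 1 lower in YAPKO HCs (median 0.33), 4 and 3 in TAZKO (median 1.04) and 5 and 1 in DKO (median 1.62), beside the same shares of all genes. Fgf21 was lower in all 3, from 5.16 to 2.57, 1.93 and 0.884 CPM.

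Other genes with an IGFBP domain, among them the matricellular genes Ccn1 and Ccn2, were tested in ECs for 7 of 13. In YAPKO ECs 4 were lower (Ccn1, Esm1, Kazald1 and Htra1; median -1.02), in TAZKO 3 (Ccn1, Ccn2 and Esm1; median -0.90) and in DKO 3 (the same symbols; median -0.62), with 0 higher in each, against 6.19%, 9.12% and 7.51% of all genes called and medians of 0.04, 0.18 and 0.06. Ccn2 in ECs was 119 CPM in WT, 14.4 in TAZKO (log2 ratio -3.04) and 43.2 in DKO, although ECs keep both alleles of Yap1 and Wwtr1. In YAPKO ECs Ccn2 was above WT, at 145 CPM. Crim1 was the most abundant (370.1, 381, 421 and 346 CPM). In HSCs Ccn1 was 210.4, 58.0, 114 and 20.4 CPM and Ccn2 235, 124, 97.2 and 90.1 CPM, both below WT in each knockout library. Ccn1 passed 2-fold in YAPKO and DKO and Ccn2 in TAZKO and DKO. Of all genes 5.08%, 9.73% and 6.58% were called there in YAPKO, TAZKO and DKO. Other genes showed no such fall in HSCs, with Crim1 at 276, 303, 307 and 251 CPM and Ccn4 at 29.7, 29.7, 35.5 and 27.6 CPM. In HCs 3, 4 and 4 of the list were tested, with 0, 2 and 2 higher and 1, 0 and 2 lower (medians -0.44, 0.59 and -0.05), against 11%, 26.6% and 18.3% of all genes.

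Proteases that cut IGFBPs, with their inhibitors, were below the limit of 20 UMIs in HCs for 8 of 8 genes. In ECs 3 were tested: 1 was lower in YAPKO (Htra1, 29.6 to 13.8 CPM; median -0.58), 2 in TAZKO (the inhibitor gene Stc1, 3.48 to 0.642 CPM, and Adam12, 27.2 to 11.7 CPM; median -1.22) and 1 was higher in DKO (Stc1, 9.62 CPM; median -0.62), against 6.19%, 9.12% and 7.51% of all genes. The landmark lists behind the lobule score moved as well: of 7 pericentral HC genes 4, 5 and 3 were higher in YAPKO, TAZKO and DKO HCs and 0 lower (medians 1.04, 2.10 and 0.99; all genes called 11%, 26.6% and 18.3%), and of 7 periportal genes 0, 1 and 1 were higher and 0, 0 and 2 lower (medians 0.36, -0.14 and 0.15). In ECs the 6 pericentral landmarks had 0 past 2-fold in each comparison (medians 0.08, 0.14 and 0.29), and of the 6 periportal ones Efnb1 alone was higher, in TAZKO and DKO (medians 0.26, 0.55 and 0.03).

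The genes whose levels over 44 points of type and library were most like each member's were named by Pearson r of log2(CPM + 1) over 7602 genes; the points share libraries and depth, so r is a description. For Igf1 they were Thrb (0.89), Idh1 (0.88) and Paqr9 (0.87), and for Igf1r Notch1 (0.94), Csf1 (0.93) and Csnk1e (0.92). Igfals was most like Akr1c14 (0.95), Slc17a3 (0.94) and Apob (0.94), Igfbp1 like Serpina12 (0.93), Pck1 (0.93) and Saa4 (0.92), and Igfbp2 like Sult2a8, Cps1 and Pon1 (each 0.97). Igfbp3 was most like Ntm, Sod3 and Gdf2 (each 0.95), Igfbp4 like Aass (0.97) and Cyp2d22 (0.96), Igfbp6 like Cd101 (0.87), Mxd1 (0.86) and Mmp9 (0.85), and Igfbp7 like Sparc (0.99), Clec4g (0.99) and F8 (0.98). Igfbp5 stayed under the level of 50 CPM asked for in those types. Between members the highest r were 0.86 for Igfals with Igfbp1, 0.86 for Igfals with Igfbp2 and 0.86 for Igf1r with Igfbp7.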

How the data were processed

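The values are UMI counts that the authors deposited as 1 filtered matrix per library (10x 3′ kit v3.1; mm10; Cell Ranger 6.0.1 by the sample notes and 4.0.0 by the matrix headers). Libraries were made from HCs and other cells isolated separately and mixed. Counts were summed over the cells of a type and library and divided by their total (CPM). Intervals are exact Poisson for CPM, exact binomial for ratios and Clopper-Pearson for shares. No test was run, as each genotype has 1 library.

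Clusters came from 2000 variable genes without the members and list genes, cell-cycle regression (gene lists of Seurat 5.3.0), 20 components, a Harmony-type library correction written here, and Louvain at resolution 0.4 on 20 neighbours; marker genes named them. Python 3.11.15 was used with numpy 2.4.6, scipy 1.17.1, pandas 2.3.3, scanpy 1.11.5, scikit-learn 1.9.0, igraph 0.11.9 and matplotlib 3.10.9. Doublets were scored (Scrublet) and left out only as an alternative. The code was tested on simulated data. For the ratio interval these were independent Poisson counts, so that test does not cover clumping in cells or differences between mice.

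Members and lists were chosen with earlier results of these data known. The lists are IGF and insulin ligands, receptors and adaptors; the growth hormone receptor pathway; IGFBP proteases and their inhibitors; other genes with an IGFBP domain; insulin and FOXO responsive genes; the integrated stress response; and HC and EC landmarks. Named are all members, Yap1 and Wwtr1, and up to 3 genes most like each member. Of the list genes past 2-fold or most abundant in their list, some are named and others enter only as counts. Some marker genes and genes higher in ECs with Igfbp5 are named as well. One result on the genes most like Igfbp4 is not reported. A level of 3 UMIs served as floor. The strata by EC, HSC and Vwf markers and by Igfbp5 UMIs were chosen after the values were seen. Gene positions are GENCODE M21 on GRCm38; promoters are RefSeq. Counts are of 3′ ends and not scaled by length, so an order of genes by level, such as the most abundant of a list, is one of counts and limited by this. Bulk data of the series were not analysed here.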

Additional observations from a re-analysis of the deposited data

Results flagged for a closer look

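Igfbp4 moved in opposite directions between cell types. Its log2 ratio to WT was above 0 in HCs (0.48 in YAPKO, 0.61 in TAZKO and 0.80 in DKO) and in neutrophils (0.49, 0.38 and 0.59), and below 0 in T cells (-0.17, -0.25 and -0.49). Neutrophil Igfbp4 was within 0.945 to 1.00 of what HC and EC RNA would give there, and HC ratios scaled by the median ratio of genes with at least 100 UMIs were 0.05, 0.02 and 0.33. T cells were not uniform: in cluster 15 Igfbp4 was 752, 741, 904 and 682 CPM in WT, YAPKO, TAZKO and DKO, with TAZKO above WT, and in cluster 8 it was 262, 259, 231 and 127 CPM. None of the pooled ratios passed 2-fold. TAZKO passed it in HCs with the cell limits read as UMIs and as mean over cells, and in neutrophils with doublets left out, with types from markers alone and in the cells with the fewest markers of other types. The cause was not tested.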

How the results depend on the processing

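Of 142 member ratios in 6 cell types, 43 were past 2-fold, and they were worked out again under 16 settings where a setting gave a value, 12 planned and 4 added after the values were seen. Of 258 counts of members past 2-fold 55 moved by more than 1.5 times, or to 0, and are given here, and the cause was not tested. Smaller moves by 1 member are not listed, among them EC DKO from 2 to 3 in most settings, where Igfbp1 passed 2-fold. With the gene limits read as UMIs, the counts were HC YAPKO 1, EC YAPKO 2, KC YAPKO 1, KC TAZKO 1, HSC YAPKO 0, HSC TAZKO 1, MAC YAPKO 1, MAC TAZKO 0 and neutrophil YAPKO 2, and Igfbp7 in KCs of YAPKO reversed from -1.06 to 1.26. With mitochondrial UMIs up to 20% they were HC YAPKO 1, HC TAZKO 1, KC DKO 2 and MAC DKO 2. With the top 8% of doublet scores left out they were KC TAZKO 1, KC DKO 2, HSC YAPKO 0, HSC DKO 1, MAC DKO 4, neutrophil YAPKO 1 and neutrophil TAZKO 2. Without library correction KC YAPKO was 1; at resolution 0.8 HC YAPKO was 1 and MAC DKO 2; with members and lists allowed in clustering HC YAPKO was 1. With types from markers alone they were HC YAPKO 1, KC DKO 3, MAC DKO 0 and neutrophil DKO 1. Scaled by the median ratio they were HC YAPKO 0, HC DKO 1 and neutrophil TAZKO 2, and as mean over cells HC TAZKO 5 and MAC DKO 2. At 100 or more UMIs they were HC YAPKO 1, HC TAZKO 1, HC DKO 1, KC DKO 0, HSC TAZKO 1, HSC DKO 1, MAC YAPKO 0, MAC TAZKO 0, MAC DKO 0, neutrophil YAPKO 2 and neutrophil DKO 1. With no filter and 1 added HSC YAPKO was 2. In the part of cells with the fewest markers of other types, added later, they were HC YAPKO 0, HC DKO 0, KC YAPKO 1, HSC TAZKO 1, HSC DKO 1 and neutrophil TAZKO 2, and Igf1 in neutrophils of TAZKO reversed from 1.06 to -0.67. In HC cluster 1 alone, added later, they were HC YAPKO 1 and HC DKO 1, and in HC cluster 4 alone, added later, HC TAZKO 1 and HC DKO 0, with Igfbp1 of YAPKO reversed from 1.24 to -0.31. Totals without HC markers, and shared barcodes left out (added later), moved no count. Igfbp3 in HSCs of DKO ranged from -2.04 to -1.15 and Igfbp7 in ECs of TAZKO from -1.24 to -1.03, past 2-fold in 14 of 14 settings; Igfbp7 in HSCs of TAZKO ranged from -1.37 to -0.96, past it in 13 of 14. Igfbp2 in HCs ranged from 0.74 to 1.51 in TAZKO and from 0.32 to 1.42 in DKO, and Igfbp1 in YAPKO HCs from -0.31 to 1.27. No paired analysis was possible because the groups share only a replicate number, with 1 mouse each. Depth limits unthinned shares, as the HC median was 1825 UMIs in TAZKO against 6135 in DKO, and the ratios of genes with few UMIs.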
